A study of Mus musculus with 2 samples.

Results

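The HOX genes of mouse were followed in poly(A) RNA of the G1E cell line. They were chosen by name alone, as the protein-coding genes called Hoxa, Hoxb, Hoxc or Hoxd followed by a number, and there were 39 of them among 21474 protein-coding genes and 43346 gene entries in all. Their levels in these libraries were known when the set was proposed, so the levels below are a description and carry no test. G1E was sequenced paired-end in 2 libraries, numbered replicate 1 and replicate 2, which form 1 group with no treated or control counterpart. The labels describe an immortalized line of postnatal male mouse origin and call it a Gata1- erythroid progenitor. Both libraries cite the same biosample, so the spread between them may be technical. G1E is a single line, and its levels need not hold for erythroid progenitors in an animal.

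HOX genes encode transcription factors that bind DNA through a homeodomain, a short helical domain encoded by a sequence called the homeobox. In mammals they lie in 4 clusters, HoxA to HoxD, in which every gene points the same way and the numbers 1 to 13 run from the 3′ end to the 5′ end. Genes of the same number in different clusters are called a paralogue group. In embryos, low-numbered genes are used in anterior tissue and high-numbered genes in posterior tissue. In blood, the HoxA and HoxB genes of the middle of the clusters are known from stem and progenitor cells, Hoxb13 is best known from prostate and hindgut, and HOX genes are silenced by Polycomb complexes and kept active by the MLL (Kmt2a) complex.

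In G1E, 7 of the 39 HOX genes reached 1 TPM (transcripts per 1000000, a level corrected for transcript length) in both libraries, against 40.0% of all protein-coding genes. The 7 were Hoxb13, Hoxc4, Hoxc5, Hoxc6, Hoxc8, Hoxc9 and Hoxd4. No HoxA gene was among them. The Hoxb13 mRNA was the most abundant HOX mRNA, and the next was that of Hoxc4. The libraries held RNA of many cells, in which fewer cells with a transcript and less of it per cell cannot be told apart.

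The homeoboxes of Hoxb13 and Hoxc4 are shown because these genes have the highest HOX levels. Both are in GRCm38, on the plus strand, 180 bases each, written 5′ to 3′. Capitals mark the bases at which they differ from each other. The Hoxc4 homeobox lies at chr15:103035663-103035842 and that of Hoxb13 at chr11:96196020-96196199, each within a coding exon.
Hoxc4 homeobox: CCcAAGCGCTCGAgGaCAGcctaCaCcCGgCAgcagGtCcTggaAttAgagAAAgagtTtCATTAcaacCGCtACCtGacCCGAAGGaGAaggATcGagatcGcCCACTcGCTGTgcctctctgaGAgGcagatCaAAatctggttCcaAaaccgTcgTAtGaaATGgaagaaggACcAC
Hoxb13 homeobox: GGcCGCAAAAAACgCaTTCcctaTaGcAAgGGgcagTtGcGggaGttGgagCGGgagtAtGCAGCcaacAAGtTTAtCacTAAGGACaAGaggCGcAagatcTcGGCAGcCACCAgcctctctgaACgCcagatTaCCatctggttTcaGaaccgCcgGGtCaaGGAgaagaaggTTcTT
Hoxb13 differed from Hoxc4 at 85 of the 180 bases, an identity of 52.8%. Over the 7 detected genes, identity to the Hoxb13 homeobox ran from 47.8% (Hoxc5) to 59.4% (Hoxc9), and identity in the 15 pairs without Hoxb13 ran from 58.3% to 77.8%, the highest being Hoxc5 with Hoxc6.

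Depth was 61982634 expected counts (read pairs, those shared between features divided by a model) in replicate 1 and 80658649 in replicate 2. A gene at 0 may still have had up to 3 counts, which amount to 0.0484 CPM (the count per 1000000 counts of the library) in replicate 1 and to 0.0372 in the other library, and this limit covers counting error only. Of 9 erythroid markers 9 were detected, against 40.0% of all protein-coding genes, led by Hba-a1 (α-globin) and Zfpm1 (FOG1). Tfrc was the lowest of them, at 3.42 and 13.82 TPM. The marker lists were chosen with earlier results of these data known, so they describe the libraries and do not test the label. Of 10 fibroblast markers 0 were detected and 6 were at 0 in both libraries, among them Col1a2, Col3a1, Pdgfra, Dcn and Lum, and the 10 summed to 0.01 TPM in each library. Of 10 epithelial markers 0 were detected, 7 were at 0, among them Epcam, Cdh1 and Krt19, and their sum was 0.16 and 0.37 TPM, most of it Vil1. All 5 pluripotency markers were at 0 in both libraries, among them Pou5f1, Nanog and Sox2. Mpo was the one detected of 6 stem and myeloid markers (1.52 and 1.76 TPM) and Lck the one detected of 4 lymphocyte markers (1.82 and 1.35 TPM). The Gata1 entry stood at 48.02 and 46.61 TPM in these libraries labelled Gata1-, and a count per gene does not show which exons its reads came from.

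Hoxb13, a posterior gene of paralogue group 13, stood at 92.44 TPM in replicate 1 and 94.22 in replicate 2, from 10647 and 13714 counts. Its mean was 93.3 ± 1.26 TPM (SD, n = 2). This placed it at the 83.9th and 83.6th percentile of detected protein-coding genes. Hoxb13 alone held 40.3% ± 1.68 of the summed HOX TPM (SD, n = 2), which was 236.1 TPM in replicate 1 and 226.9 in replicate 2. The gene is a 2-exon gene at chr11:96194316-96197447 on the plus strand, and all its counts were given to its one annotated transcript.

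Hoxb13 stood alone in its cluster. The next HOX gene on its 3′ side, Hoxb9, begins 74.0 kb away and had 0 counts in both libraries. With Hoxb9 set to 3 counts, a limit for counting error, Hoxb13 was 3920-fold higher per base of effective length in replicate 1. In replicate 2 it was 5050-fold higher. The deposited upper credibility bounds of Hoxb9 were 0.0374 and 0.0296 TPM. They lie above what 3 counts amount to, 0.0236 and 0.0187 TPM, so these folds are not lower limits. On its 5′ side, Ttll6, a tubulin glutamylase gene whose annotated end lies 28.9 kb away, was also at 0 in both. The other 9 HoxB genes together had 101 counts in replicate 1 and 57 in replicate 2, and none passed 0.55 TPM. Hoxb1, Hoxb2 and Hoxb9 were at 0 in both libraries.

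HoxC was the cluster with the most detected genes, 5 of 9, and they were neighbours. Hoxc4, the gene at the 3′ end of the cluster, stood at 64.81 and 60.71 TPM (62.8 ± 2.90, SD, n = 2) from 6823 and 8061 counts. Hoxc6 stood at 28.15 and 27.37 TPM (27.8 ± 0.552). Hoxc5, which lies between them, was lower than both, at 11.22 and 12.48 TPM (11.9 ± 0.891). Hoxc8 stood at 12.01 and 10.22 TPM (11.1 ± 1.27), and Hoxc9 at 11.82 and 9.89 TPM (10.9 ± 1.36). The level therefore did not change steadily along the cluster: in each library Hoxc4 was the highest, Hoxc5 lay below Hoxc6, and Hoxc8 and Hoxc9 were near Hoxc5. Within a library, Hoxc4 was 2.30- and 2.22-fold above Hoxc6, 5.77- and 4.86-fold above Hoxc5, and 5.48- and 6.14-fold above Hoxc9.

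The detected stretch of HoxC ended between Hoxc9 and Hoxc10, whose annotated ends lie 4.55 kb apart. Hoxc10 had 8 counts in replicate 1 and 20 in replicate 2, so Hoxc9 was 146-fold higher per base of effective length in replicate 1 and 61.6-fold higher in replicate 2. Farther 5′, Hoxc11 had 4 and 1 counts, and Hoxc12 and Hoxc13 had 0 in both libraries. The 5 detected genes spanned 60.4 kb, from the start of Hoxc9 to the end of Hoxc4.

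In HoxD, Hoxd4 was the one detected gene of 9. It stood at 14.11 TPM in replicate 1 and 10.89 in replicate 2 (12.5 ± 2.28, SD, n = 2), from 1016.99 and 996.79 counts. On a log scale the 2 libraries lay farther apart for Hoxd4 than for the other detected HOX genes. Its counts were not whole, and its exons are shared with other entries that are described with its transcripts. Its neighbour Hoxd3 had 0 counts in replicate 1 and 14.42 in replicate 2, or 0 and 0.17 TPM. The deposited upper credibility bounds of Hoxd3 were 0.386 and 0.502 TPM, below the lower bounds of Hoxd4, 13.0 and 10.1 TPM. No fold is given for this pair, since the effective length of Hoxd3 in the tables differed between the libraries, at 2824 bases in replicate 1 and 1213 in replicate 2. Of the other HoxD genes only Hoxd8 had a count, 1 in replicate 2.

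In HoxA there were almost no counts. All 11 of its genes together had 5 counts in replicate 1 and 5 in replicate 2, and 9 were at 0 in both. Hoxa7 had 4 and 5 counts, and Hoxa9, which is known from blood stem cells and leukaemia, had 1 and 0.

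**Figure D1:**
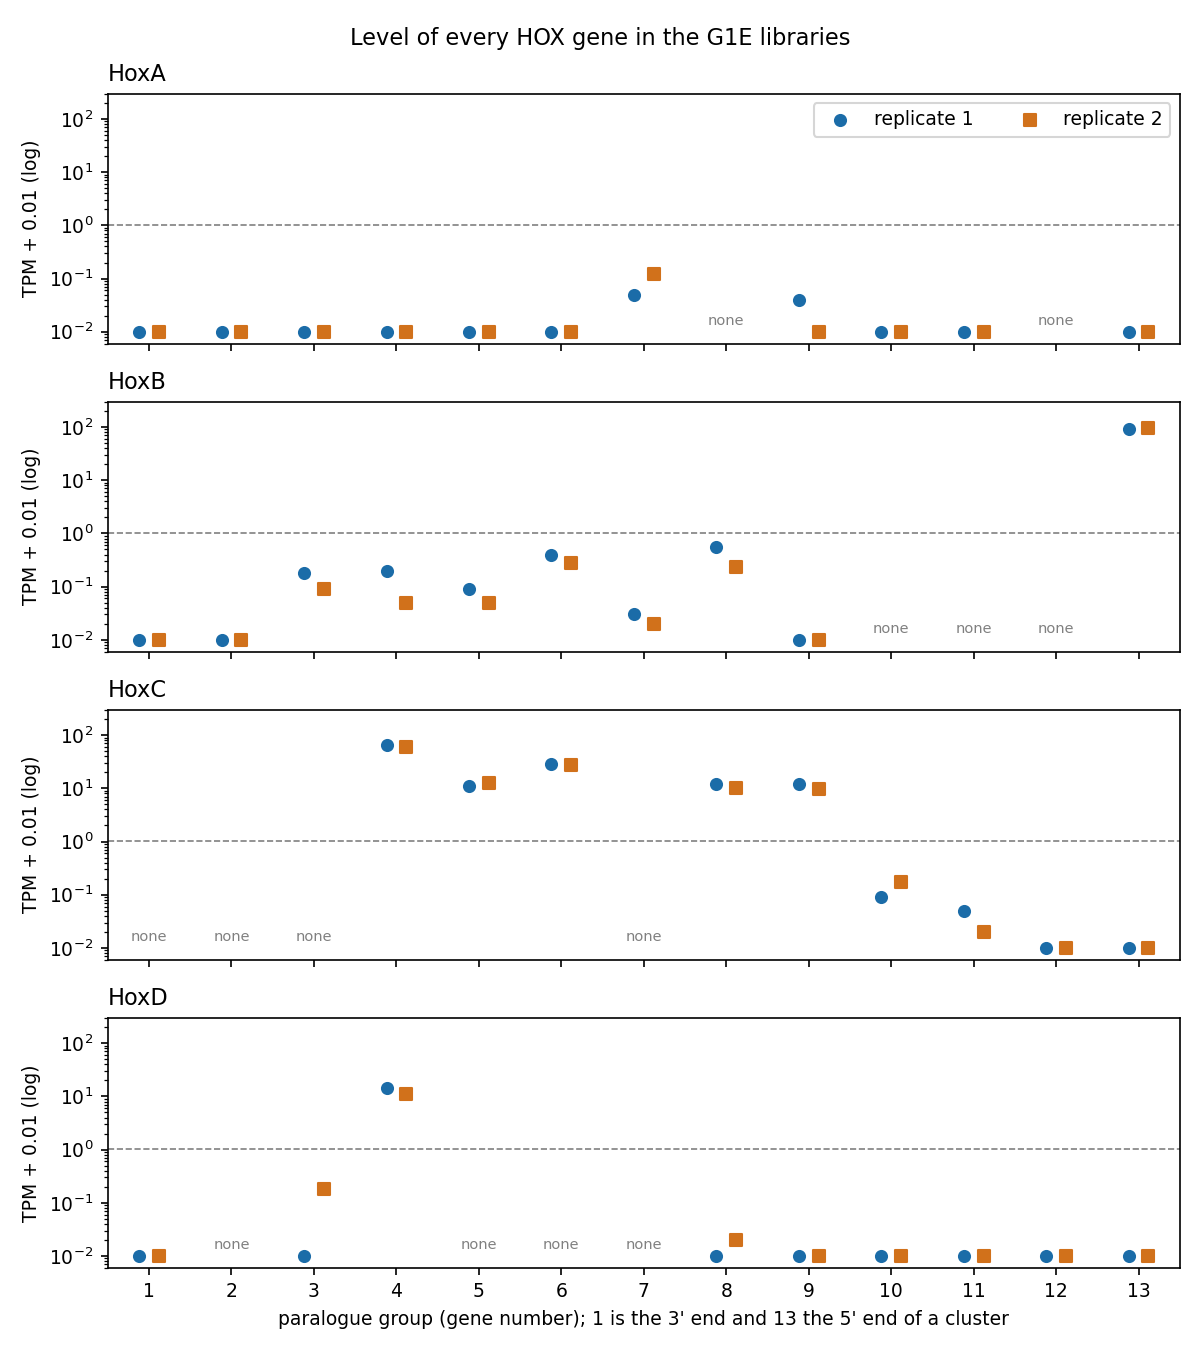
Level of each of the 39 HOX genes, 1 panel per cluster, against paralogue group (horizontal) on a log axis of TPM + 0.01 (vertical). Circles are replicate 1 and squares replicate 2, "none" marks a group with no gene in that cluster, and the dashed line is 1 TPM. The points above the line are Hoxb13, Hoxc4 to Hoxc6, Hoxc8, Hoxc9 and Hoxd4, the lowest of them at 9.89 TPM.

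Summed by cluster, HoxC held 53.8% ± 0.709 of the HOX TPM, HoxB 40.8% ± 1.47, HoxD 5.43% ± 0.775 and HoxA 0.0391% ± 0.0133 (SD, n = 2). The log2 ratio of the HoxB to the HoxC sum was -0.40 ± 0.07 (SD, n = 2). In the order of levels, Hoxb13 was above Hoxc4, Hoxc4 above Hoxc6, and Hoxc6 above Hoxd4, in each case with both libraries of the first above both of the next. Hoxd4, Hoxc5, Hoxc8 and Hoxc9 followed, and each of these overlapped its neighbour in the order. Between Hoxb13 and Hoxc4 the fold was 1.43 in the first library and 1.55 in the second, a log2 difference of 0.57 ± 0.09 (SD, n = 2).

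Of the 13 paralogue groups, 6 had a detected member and 7 had none. Group 4 was the one group with 2, Hoxc4 and Hoxd4, and Hoxc4 was 4.59- and 5.57-fold above Hoxd4. In that group Hoxa4 was at 0 and Hoxb4 at 0.19 and 0.04 TPM. Groups 5, 6, 8 and 9 were represented by their HoxC genes alone, and group 13 by Hoxb13 alone. Hoxa13, Hoxc13 and Hoxd13, the other members of group 13, were at 0 in both libraries. Groups 1, 2 and 3, and groups 10, 11 and 12, had no detected member, nor had group 7.

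The other 32 HOX genes divide into 20 at 0 counts in both libraries and 12 with some counts. Among all 21474 protein-coding genes, 8463 were at 0 in both libraries. For the 20, a count of 3 would correspond to between 0.0225 and 0.0736 TPM in replicate 1 and between 0.0178 and 0.0584 in replicate 2, at the effective lengths in the tables, which for genes without reads do not rest on reads. Their deposited upper credibility bounds reached at most 0.295 and 0.235 TPM. The 12 with counts reached at most 0.55 TPM, well under the 9.89 TPM of the lowest detected value, so no HOX gene lay near the line between detected and not. Of the 12, 7 had more than 3 counts in both libraries, namely Hoxa7, Hoxb3, Hoxb4, Hoxb5, Hoxb6, Hoxb8 and Hoxc10. The middle of HoxB thus held most of the low counts. Hoxb6 had 26 and 22 counts, Hoxb3 17 and 11, and Hoxb5 8 and 6. Summed, the 32 genes held 1.90 CPM in replicate 1 and 1.22 CPM in replicate 2.

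**Figure D2:**
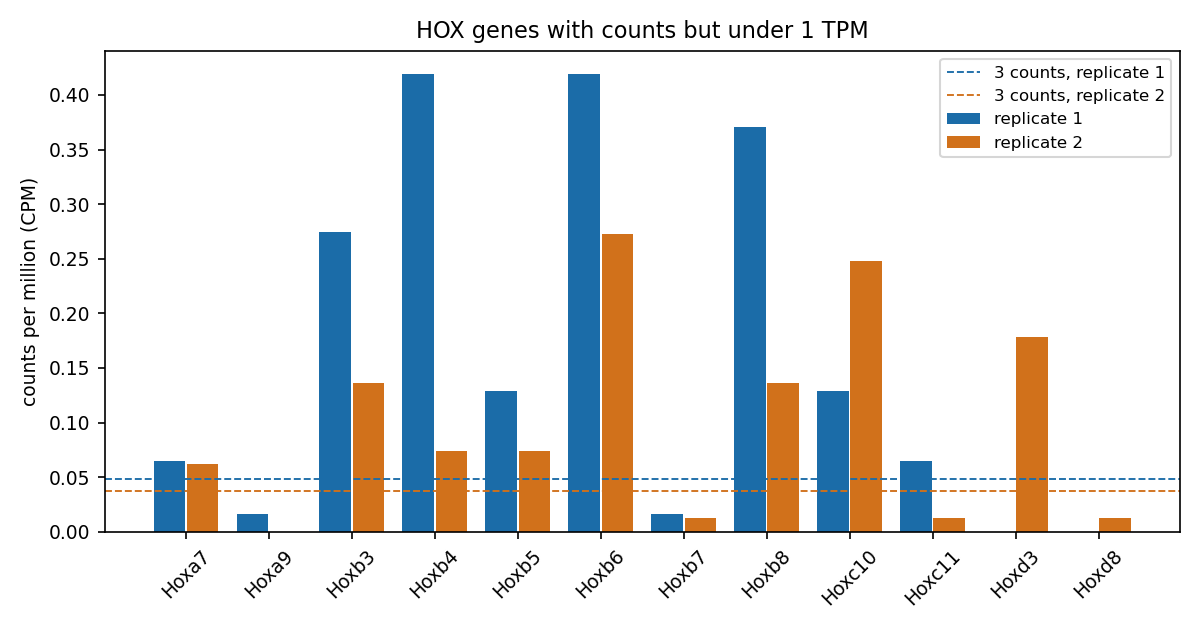
CPM (vertical, linear) of the 12 HOX genes with counts but under 1 TPM, in replicate 1 and replicate 2 (bars). The dashed lines mark what 3 counts amount to, 0.0484 CPM in replicate 1 and 0.0372 in replicate 2. In 9 of the 12 genes the bar is higher in replicate 1, but the share over all genes was not computed. The bars are scaled to total counts, and the 9 include Hoxb7 (1 and 1 counts) and Hoxa9 (1 and 0). No common shift is read from them.

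The libraries were compared with each other on rounded counts by an exact binomial test, two-sided and conditional on the sum. A gene was called when it differed by 2-fold or more at an adjusted p under 0.05 (Benjamini-Hochberg, 11636 genes). It knows counting error only and compares these libraries, not conditions. Of all genes tested 5.62% were called, and 1.80% were called higher in replicate 1. Of 13 HOX genes tested 3 were called, each of them under 1 TPM. Hoxb4 had 26 counts in replicate 1 and 6 in replicate 2, a log2 difference of replicate 2 from replicate 1 of -2.61 (adjusted p = 2.27e-05, exact test). Hoxb8 had 23 and 11 counts, a log2 difference of -1.56 (adjusted p = 0.00651, exact test). Hoxd3 was called higher in replicate 2, with 0 counts against 14, a log2 difference of 1.72 with 3 counts in place of 0 (adjusted p = 0.00214, exact test). Of its 14.42 expected counts there, the model gave 12.42 to Hoxd3-203, which shares 388 exon bases with Hoxd4-203. The test takes no account of that division. The deposited bounds of Hoxd3 overlap, at 0.0477 to 0.386 TPM in replicate 1 and 0.106 to 0.502 in replicate 2. With 1 library on each side, spread beyond counting cannot be estimated apart from the differences themselves, so the calls carry no replicate check. Hoxb4 and Hoxd3 reached the minimum of 10 counts only in the library where each was called higher. Their entry into the test was thus not independent of the difference. The 7 detected HOX genes were not called. Without the 2-fold requirement, 9 HOX genes passed the exact test, 6 of them detected, as did 64.4% of all genes. For the 7, the log2 differences ran from -0.53 (Hoxd4) to -0.01 (Hoxc5).

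HOX genes often have more than one start site, and the table of transcripts gives the level of each annotated transcript. Reads common to several transcripts are divided between them by a model, so a split rests on the bases that set the transcripts of a gene apart. Hoxd4-202 has 0 bases of its own, and its share rests on how the model divided shared reads. Hoxb13 and Hoxc5 were each given wholly to 1 transcript in both libraries, Hoxc8-201 took 99.2% ± 0.595 of its gene and Hoxc9-201 took 99.8% ± 0.214 (SD, n = 2). Hoxc4, Hoxc6 and Hoxd4 were divided.

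Hoxc4-201, with its first exon at chr15:103034395-103035161, stood at 43.26 and 42.11 TPM, or 68.1% ± 1.85 of the gene (SD, n = 2). Hoxc4-202 stood at 21.55 and 18.60 TPM, or 31.9% ± 1.85. Hoxc4-202 begins upstream, with a first exon at chr15:103018934-103019041, and it also has an extra exon of 49 bases at chr15:103035267-103035315 in front of the last one. It has 585 bases in no other Hoxc4 transcript and Hoxc4-201 has 447. Of the 585, only 49 are the extra exon, and the rest lie in the first exon and the front of the second. Those others bear on the start of the RNA, not on use of the extra exon. The 447 bases of Hoxc4-201 lie at its 3′ end, since Hoxc4-202 ends at position 103036405 and Hoxc4-201 at 103036852. The split thus mixes starts with 3′ ends, and the share of Hoxc4-201 does not measure its start alone. No annotated Hoxc4 transcript has the upstream start without the extra exon, so the share of RNA with that exon was not measured apart. The deposited credibility bounds of the Hoxc4-202 level were 19.7 to 22.9 TPM in replicate 1 and 17.2 to 19.6 in replicate 2. The coding sequence of Hoxc4-201 has 264 codons and holds the whole homeobox, whereas that of Hoxc4-202 has 151 codons and ends within the extra exon, at position 103035280, before the homeobox.

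The exon junctions that set these transcripts apart are shown as 30 bases, 15 on each side, with the downstream exon in capitals. Hoxc4-201 joins exon 1 to exon 2, which carries the homeobox. Hoxc4-202 joins the same upstream bases to its extra exon.
Hoxc4-201, exon 1 to 2: ttcacgttagcacggTGAACCCCAATTATA
Hoxc4-202, exon 2 to 3: ttcacgttagcacggGAGCGACTCTGGGTT
Hoxc4-202, exon 1 to 2: tcccaggcggtggctAGGGGGCTCAAGCCC
The first pair share their 15 upstream bases and part at the junction, where the extra exon begins.

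Hoxc6-201 stood at 18.50 and 18.40 TPM, or 66.4% ± 1.07 of the gene (SD, n = 2), and it is the one Hoxc6 transcript annotated as coding. Hoxc6-202 (5.20 and 4.36 TPM) and Hoxc6-203 (4.46 and 4.62 TPM) took 17.2% ± 1.80 and 16.4% ± 0.732. Both are annotated as processed transcripts without a coding sequence. They begin upstream of Hoxc6-201, whose start is at position 103009573, with first exons at chr15:102998257-102998771 and chr15:103000529-103000839. Their junctions into the body of the gene differ in both flanks, since each enters the next exon at its own position.
Hoxc6-202, exon 1 to 2: tgacagcagcgcccgGACGTCCTCCCCAAC
Hoxc6-203, exon 1 to 2: gggaaccgccgatcgGAGAATGTCGTGTTC

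Hoxd4 was split between Hoxd4-202, at 7.47 and 6.17 TPM (54.8% ± 2.63, SD, n = 2), and Hoxd4-203, at 6.49 and 4.58 TPM (44.0% ± 2.79). Hoxd4-202 has 2 exons, begins at position 74727074 of chromosome 2 and codes for the homeodomain protein, but it has 0 bases of its own, all being shared with other entries. Hoxd4-203 is a 7-exon processed transcript with no coding sequence. It begins at chr2:74711929-74712316, an exon of 388 bases that it shares with Hoxd3-203, and reaches into the last exon of Hoxd4. Hoxd4-201, the other coding transcript, begins at position 74721978 and took only 1.17% ± 0.157, at 0.15 and 0.14 TPM. Its first exon and that of Hoxd4-203 are both joined to the same second exon.
Hoxd4-203, exon 1 to 2: ttcggcaccctccggAAGACTAAAAACTTG
Hoxd4-201, exon 1 to 2: acgaaaagaaacccaAAGACTAAAAACTTG
Hoxd4-203, exon 6 to 7: ctgcttcaggcgatgGTATCTGACCAGGCG
Hoxd4-202, exon 1 to 2: tgcacgtgaattcggTGAACCCCAACTACA
In this annotation the distal start of Hoxd4-203 was thus estimated above the start of Hoxd4-201 in both libraries, at 6.49 against 0.15 TPM and 4.58 against 0.14. The 388 bases of its first exon are the only ones that Hoxd4-203 shares with no other Hoxd4 transcript, and Hoxd3-203 has them too. The antisense transcript Hoxd3os1-204 also overlaps 347 exon bases of Hoxd4-203. This comparison of starts therefore rests on how the model divided reads, and antisense reads may be among them.

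**Figure D3:**
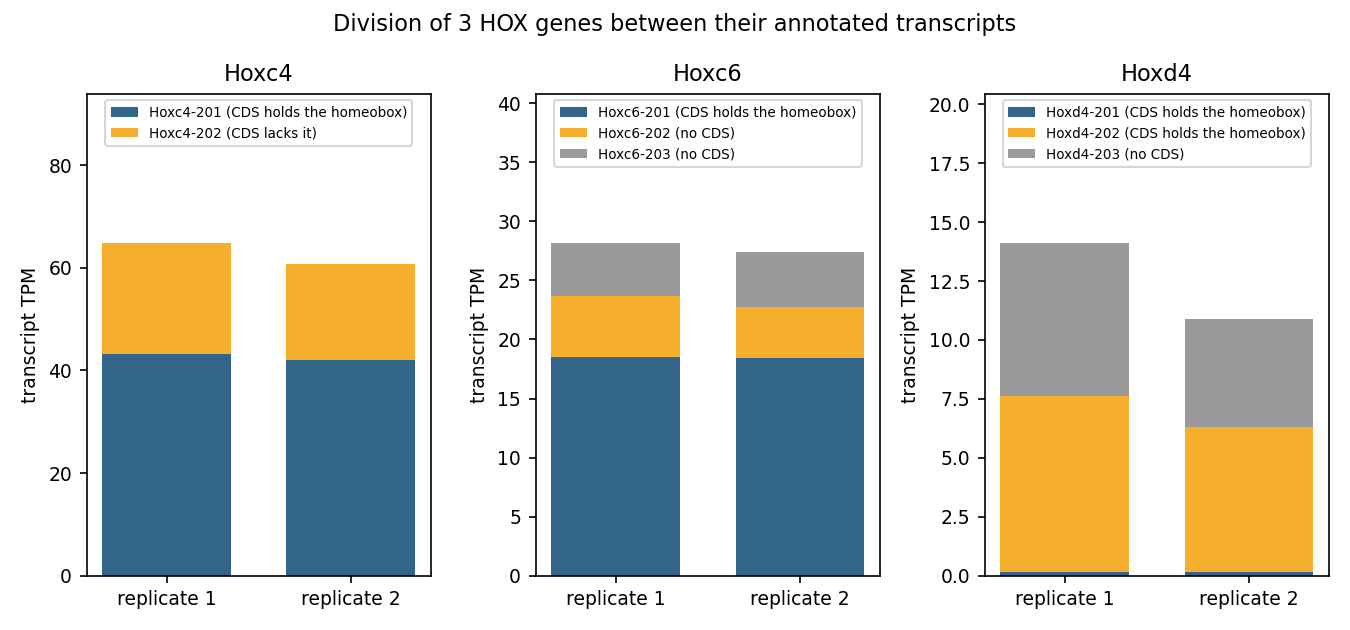
Transcript TPM (vertical, linear, stacked from 0) of the annotated transcripts of Hoxc4, Hoxc6 and Hoxd4 in replicate 1 and replicate 2, coloured by transcript, with the legend saying which coding sequences (CDS) hold the homeobox. Hoxc4-202 and the non-coding Hoxc6 and Hoxd4 transcripts take 31.9% to 44.0% of their genes.

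Over the 7 detected genes, 8 of the 15 annotated transcripts hold the whole homeobox within their coding sequence. They carried 83.9% of the summed TPM of these genes in replicate 1 and 85.7% in replicate 2 (84.8% ± 1.26, SD, n = 2).

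The sequences in front of these upstream starts are shown because Hoxd4-203 and Hoxd4-201 differed in level. They come from the RefSeq promoter table on GRCm38.p6, plus strand, trimmed to end before the annotated start. The first is the RefSeq Hoxd3 entry: it ends before the start of Hoxd3-203, at position 74711927, which lies 2 bases ahead of the start of Hoxd4-203. This Hoxd3 window, chr2:74711743-74711926, has 184 bases, 11 CpG dinucleotides and 47.3% G and C. That before Hoxd4-201, chr2:74721728-74721977, has 250 bases, 3 CpG and 40.4% G and C. Capitals mark TATAAA, searched on both strands, which occurs once on the reverse strand of the Hoxd4-201 window.
Before Hoxd3-203 and Hoxd4-203: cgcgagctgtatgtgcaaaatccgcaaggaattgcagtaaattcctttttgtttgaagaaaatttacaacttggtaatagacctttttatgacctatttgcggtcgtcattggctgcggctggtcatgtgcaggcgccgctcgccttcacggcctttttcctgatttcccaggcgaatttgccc
Before Hoxd4-201: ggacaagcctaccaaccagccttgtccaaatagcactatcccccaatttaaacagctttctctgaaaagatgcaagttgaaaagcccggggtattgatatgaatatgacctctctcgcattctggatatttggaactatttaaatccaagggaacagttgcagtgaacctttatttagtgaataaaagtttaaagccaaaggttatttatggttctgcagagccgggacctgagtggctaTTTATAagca
AGATAA, the core letters of a GATA factor motif, was searched on both strands too and is in neither window. In the complete windows of 300 bases, TATAAA was present in 4 of 24 HOX windows (16.7%) and in 4473 of 32851 windows of all genes (13.6%), and AGATAA in 0 of 24 and 11.2%. HOX windows held a median of 14.5 CpG against 7 over all. These are matches of letters and say nothing of binding.

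Micro-RNA genes lie inside the HOX clusters, and the mature sequences are given here because 2 of these genes sit in introns of detected transcripts. Seeds, bases 2 to 8, are in capitals, with sequences from RefSeq.
mmu-miR-10a-5p: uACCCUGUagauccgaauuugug
mmu-miR-10b-5p: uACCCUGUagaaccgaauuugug
mmu-miR-196a-5p: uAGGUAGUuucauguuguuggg
mmu-miR-196b-5p: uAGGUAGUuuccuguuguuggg
mmu-miR-615-3p: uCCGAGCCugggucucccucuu
The miR-10 pair share the seed ACCCUGU and the miR-196 pair the seed AGGUAGU. Mir10b (chr2:74726074-74726096 for the mature arm) lies in an intron of Hoxd4-203, Hoxd4-201 and Hoxd3-203, which together stood at 6.64 TPM in replicate 1 and 4.78 in replicate 2. Mir615 (chr15:103014969-103014990) lies in an intron of Hoxc5-201, at 11.22 and 12.48 TPM. Mir10a and both Mir196a genes and Mir196b had host transcripts at 0 or none. The entries of all these genes had 0 counts, and since the labels give a size range above 175, the libraries do not measure mature micro-RNAs.

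Among 42 non-coding entries within the clusters, 36 were at 0 in both libraries and Hoxd3os1 alone was detected. The share over all non-coding entries was not computed, so these counts are not read as particular to the clusters. Hoxd3os1, an antisense RNA on the minus strand at chr2:74703248-74716130, stood at 7.63 and 5.85 TPM, from 264 and 243 counts. Its main transcript, Hoxd3os1-204, shares 347 exon bases with Hoxd4-203 on the opposite strand. Since the use of strand in the counting is not given in the sources used here, reads of the pair over these bases may not be told apart, and the levels of Hoxd3os1 and Hoxd4-203 are uncertain to that extent. Gm28230 runs through Hoxd3 and Hoxd4 and is typed as protein coding, so it is not among the 42. Its transcript is annotated as a target of nonsense-mediated decay. It had 94.01 and 132.80 counts at 0.50 and 0.56 TPM, and shares 956 of the 1494 bases of Hoxd4-202. In HoxB, the pseudogene Gm11539 stood at 1.53 and 0.68 TPM and the antisense RNA Hoxb5os at 0.40 and 0.25. In HoxA, Hoxaas2 had 3 and 0 counts and Hoxa11os 1 and 0. Hotair, the antisense RNA known from the 5′ part of HoxC, had 1 and 0.

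Of the 24 protein-coding genes nearest the ends of the clusters, 3 on each side, 18 were detected, against 40.0% of all protein-coding genes. Atp5g1, a subunit gene of the mitochondrial ATP synthase on the 5′ side of HoxB, stood at 192.4 and 390.0 TPM, and Cbx1, a heterochromatin protein gene on its 3′ side, at 72.94 and 75.91. Next to HoxA, Skap2 stood at 9.46 and 10.53 TPM and Hibadh at 19.59 and 16.74, while Evx1, the homeobox gene at the HoxA end, was at 0 in both libraries. Evx2 beside HoxD was also at 0 in both libraries, and so were Ttll6, Calcoco2 and Skap1 around HoxB. Mtx2 and Lnpk, on either side of HoxD, were detected too, Mtx2 at 94.31 and 71.00 TPM and Lnpk at 8.41 and 15.20.

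HOX proteins bind many sites together with PBC and MEIS cofactors, which are homeodomain proteins of the TALE class. Of 9 such genes 5 were detected. Pbx2 was the highest, at 139.60 and 137.78 TPM, above the Hoxb13 level in both libraries. Pbx3 followed at 8.65 and 13.52 TPM, Pknox1 (Prep1) at 5.37 and 7.08, Pbx4 at 2.74 and 2.03, and Meis3 at 2.57 and 1.83. Meis1, the partner of Hoxa9 in blood stem cells, stood at 0.40 and 0.64 TPM, Meis2 at 0.09 and 0.27, and Pknox2 had 0 counts in both.

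Of 12 genes for activators of HOX transcription and a boundary factor (Ctcf), 9 were detected. Men1 (menin) stood at 204.12 and 145.24 TPM, Ctcf, which binds at boundaries within the clusters, at 187.25 and 156.85, and Dot1l, a histone H3 methyltransferase, at 120.58 and 119.50. Psip1 (84.90 and 68.05 TPM) and Kmt2a (9.12 and 10.16 TPM) encode a tether and the enzyme of the MLL complex. The parahomeobox genes Cdx1, Cdx2 and Cdx4, known as activators of HOX genes in the embryo, were at 0 counts in both libraries.

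Of 10 Polycomb genes 9 were detected. Eed, a core subunit of PRC2, stood at 137.12 and 194.59 TPM, Suz12 at 59.77 and 44.07, and the methyltransferase gene Ezh2 at 31.35 and 30.17. Of the PRC1 genes, Rnf2 stood at 73.30 and 93.29 TPM, Ring1 at 58.57 and 46.85, and Bmi1 at 42.13 and 45.59. Ezh1 was at 1.91 and 4.23 TPM, and Cbx2 had 1 count in each library. These lists were compiled from general knowledge with results of these libraries in view, and their counts are set beside the 40.0% of all protein-coding genes detected.

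**Figure D4:**
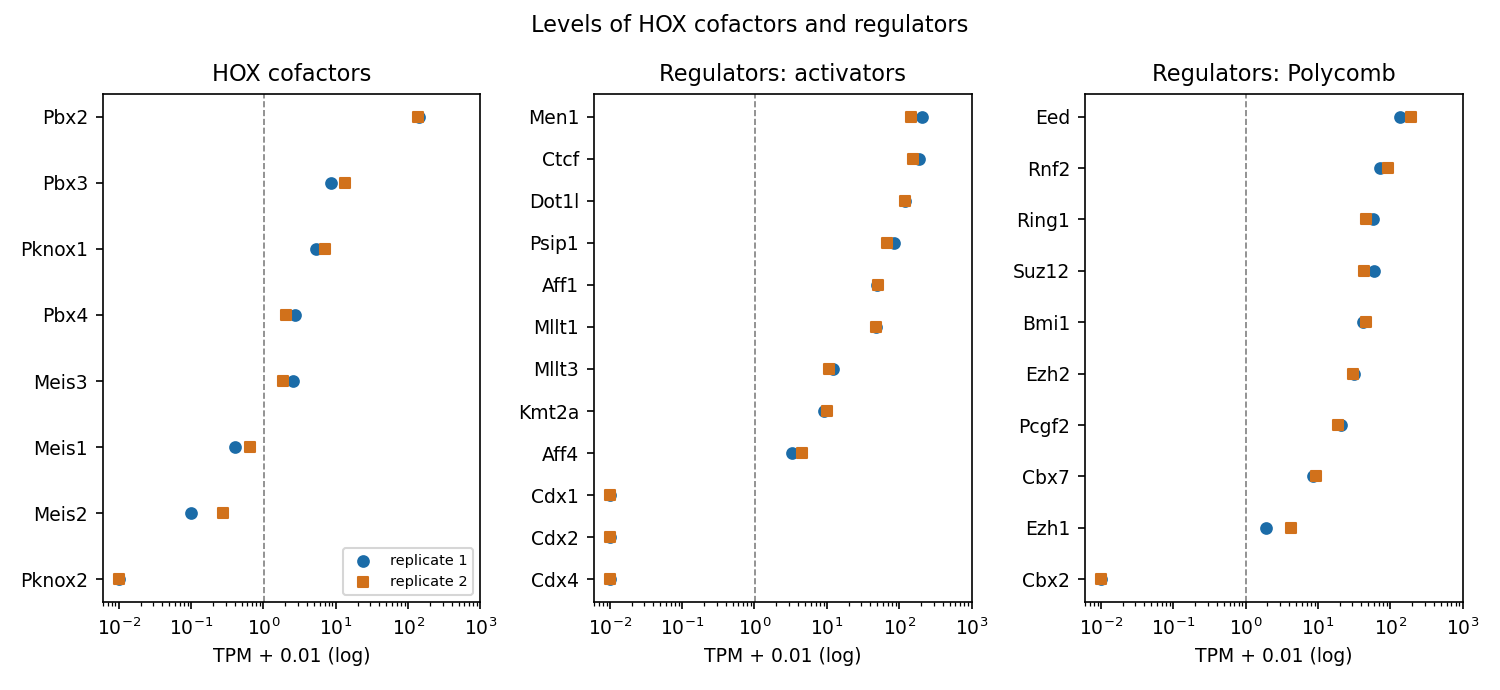
Levels of 8 of the 9 HOX cofactor genes, 12 genes for activators and the boundary factor Ctcf, and 10 Polycomb genes. The axis is a log axis of TPM + 0.01 (horizontal), with circles for replicate 1, squares for replicate 2 and a dashed line at 1 TPM. Pbx2, Men1, Ctcf and Eed lie above 100 TPM in both libraries, and the 3 Cdx genes lie at the left edge with 0 counts.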

How the data were processed

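Poly(A) RNA of G1E was measured in 2 libraries of 1 group, numbered by the labels. Per the lists deposited with the files, each library was aligned alone to the transcriptome of mm10 with gene annotation M4; for the aligner, the counter and the use of strand, the record is: not given in the sources used here. The deposited tables hold expected counts (estimated read pairs, shared reads divided by a model), TPM and FPKM, both scaled by effective length per the file headers, posterior means and credibility bounds, the lengths, and the percent of a gene's TPM given to each transcript by the authors.

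Of 43346 gene entries, 42462 were matched by Ensembl identifier to GENCODE M21 on the same assembly, for symbols, exons and coding sequences. All 15 transcripts of the detected HOX genes had the same length in both. Of the 39 HOX genes, 22 had a RefSeq promoter window, 2 of them detected (Hoxc4 and Hoxd4). Detected means 1 TPM or more in both libraries. Ratios between genes are of counts over effective length, and 3 counts stand for 0. Counts were called whole within 0.005 (11 of 13 HOX genes with 10 or more counts).

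The libraries were compared over genes with 10 or more counts in either, after rounding the expected counts and scaling totals by TMM factors (0.960 and 1.04) from edgeR 4.0.16 (R 4.3.3). The test was tried first on counts simulated with counting error only, so that trial does not cover spread beyond counting. It compares these 2 samples, which share a biosample, and does not measure the spread between them. Alternatives used posterior mean TPM, FPKM, other thresholds, DESeq2 1.42.0 size factors, total-count scaling and edgeR's negative binomial exact test. The remaining work was done with matplotlib 3.10.9, Biopython 1.88, NumPy 2.4.6 and pandas 2.3.3 under Python 3.11.15.

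The members, lists and tests were chosen with earlier results of these data known. HOX genes were described singly at a mean of 1 TPM or more or when called between libraries, other lists by their detected members up to the 10 highest and their defining genes at 0, and non-coding entries by the 2 highest per cluster; other genes named were chosen after their values were seen. Some items withheld from this text are not reported here.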

Additional observations from a re-analysis of the deposited data

How the results depend on the processing

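For 17 results, 63 values under other settings were computed. Of these, 58 stayed within the spread of the libraries or within 1.5 times the count, 5 moved and 0 turned direction. With n = 2, a level, share or ratio taken from either library alone always lies within that spread. Such values are among the 58 and say nothing of stability. The summed HOX level, 231.5 TPM, was 205.8 in FPKM, and the Hoxb13 share, 40.3%, was 44.1% in expected counts, which are not corrected for length. The count of HOX genes called between libraries, 3, was 9 with no fold requirement, where 64.4% of all genes were called. With a minimum of 50 counts it was 0 (7 tested, 6 at an unadjusted p under 0.05, exact test). That minimum removes the 3 called genes before the test, so this 0 says nothing of them. With edgeR's negative binomial exact test the count was also 0 (3 at an unadjusted p under 0.05). The dispersion of that test came from the same pair of libraries taken as replicates, so it is no independent test of these differences. Leaving out each library, 7 HOX genes were detected either way, their sum ranged from 226.9 to 236.1 TPM, the Hoxb13 share from 39.1% to 41.5%, and the log2 ratio of HoxB to HoxC from -0.45 to -0.35; the library comparison needs both. No paired analysis was possible because there is 1 group. Depth limits the genes with under 30 counts, whose difference between libraries rests on a few reads.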

Other observations

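Of 33 homeobox genes outside the HOX clusters, 11 were detected, against 40.0% of all protein-coding genes. At 0 in both libraries were 17 of the 33, and 8463 of all 21474 protein-coding genes. Hhex, a regulator of blood and endothelial progenitors, was the highest at 324.84 and 217.69 TPM, above every HOX gene in both libraries. Tgif2 stood at 59.83 and 77.86 TPM, Adnp at 49.01 and 46.04, Hlx at 26.23 and 22.86, and Pou2f1 (Oct-1) at 15.44 and 16.22. Of genes better known from embryonic patterning, Dlx1 stood at 3.39 and 2.51 TPM, while Dlx2, Msx1, Msx2, Meox1, Meox2 and Otx2 were at 0 in both. Satb1 and Hopx were also at 0 in both libraries.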
